A study of Mus musculus with 2 samples.

Results

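Crem, Nr4a1, Nr4a2, Nr4a3, Per1, Pde4b, Pde4d and Nfil3 are 8 genes known to respond to the transcription factor CREB, and they were followed through every cell type of 2 single-cell libraries. They were named as CREB-responsive genes that kinases downstream of LKB1 are known to restrain, and are 8 of the 32285 genes measured. The 8 genes and the gene lists used below were chosen with earlier results of these data known. Their counts beside the share of all genes are therefore description only. All 8 were detected in both libraries. Whether a change of LKB1 lay behind any value below was not tested.

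The normal library (WT) was made from duodenum, taken from 3 mice of genotype Lkb1+/+;Myh11-Cre/ERT2. The polyp library (Lkb1_Het) was made from polyps, taken from 3 mice of genotype Lkb1flox/+;Myh11-Cre/ERT2. Both groups thus carried the tamoxifen-inducible Cre under the promoter of Myh11, a smooth-muscle myosin, and the polyp mice had 1 floxed and 1 intact Lkb1 allele. Cells of the 3 mice of a group were pooled and could not be told apart, so each group is 1 library and no test between the conditions was possible. The tissue label of both libraries reads duodenum, so the site of the polyps is not settled by the labels. Ages and the tamoxifen schedule are not given in the sources used here.

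LKB1, encoded by Stk11, is the kinase that switches on the salt-inducible kinases (SIKs) and the AMP-activated kinase. Active SIKs phosphorylate the CRTC coactivators and class IIa histone deacetylases and so hold them in the cytoplasm. Cyclic AMP, through protein kinase A, inhibits SIKs and phosphorylates CREB, and freed CRTC then joins CREB at cAMP response elements (CREs). Among the targets, CREM is a CREB-family factor whose short forms repress CREB sites, NR4A1, NR4A2 and NR4A3 are orphan nuclear receptors made as immediate-early genes, and PER1 is a repressor of the circadian clock. PDE4B and PDE4D break cAMP down, and NFIL3 is a bZIP repressor needed for innate lymphoid cells. In T cells the NR4A genes are also induced by the antigen receptor, and in many cells warm enzymatic digestion of a tissue induces immediate-early genes.

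CREB acts through CREs, so the promoters were searched for the core of that element, and the stretches that hold it are shown. Promoters were 250 bases before an annotated start in RefSeq (GRCm38.p6), and 7 of the 8 genes had 11 of them in the table used, Crem not among them. The core of the CRE was searched as TGACG, or CGTCA on the other strand, and the full palindrome as TGACGTCA. The core was found in 7 of the 11 promoters and in 6 of the 7 genes, against 17.8% of all 32851 promoters of that length. Nr4a1, Nr4a2 and Nr4a3 each held 4 matches, a number reached by 0.137% of all promoters (45). The full palindrome was in none of the 11, against 1.55% of all. Pde4d held no match and Pde4b held 1 in 1 of its 4 promoters. A match describes the letters only and is not a bound site.

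Below, the stretch around the matches is given 5′ to 3′ on the strand of the gene, in lower case with each match to the core in capitals, at chr15:101266601-101266822 (+) for Nr4a1, chr2:57124098-57124215 (-) for Nr4a2, chr4:48045062-48045152 (+) for Nr4a3, chr11:69098699-69098719 (+) and chr11:69100008-69100036 (+) for the starts 1 and 2 of Per1, and chr13:52981082-52981110 (-) for Nfil3. The stretch of Nr4a3 ends before the first annotated exon and shows 3 of its 4 matches.
Nr4a1: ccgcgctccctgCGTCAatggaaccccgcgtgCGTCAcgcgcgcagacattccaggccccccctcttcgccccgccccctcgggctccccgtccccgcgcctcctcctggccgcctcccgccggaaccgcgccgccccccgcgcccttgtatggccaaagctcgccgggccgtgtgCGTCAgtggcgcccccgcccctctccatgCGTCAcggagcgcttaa
Nr4a2: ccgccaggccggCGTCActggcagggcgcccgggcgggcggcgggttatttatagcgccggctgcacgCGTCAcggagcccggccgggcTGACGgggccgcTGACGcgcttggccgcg
Nr4a3: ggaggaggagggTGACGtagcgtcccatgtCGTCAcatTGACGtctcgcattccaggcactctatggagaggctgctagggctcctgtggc
Per1 start 1: ttatTGACGgtgtgagacatc
Per1 start 2: gagctcagcggcTGACGtcggtttccctg
Nfil3: gcggccgccgccCGTCAcggcggggctgg

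The matches of Nr4a1 began at -233, -213, -69 and -40 from the start. Those of Nr4a2 began at -200, -144, -123 and -111, and those of Nr4a3 at -231, -213, -205 and -147. The single matches of the other promoters began at -246 and -132 for the starts of Per1, -34 for Pde4b and -59 for Nfil3. In the GENCODE M21 annotation of the same genome the genes lie on chromosome 15 from 101254269 to 101274795 (Nr4a1), chromosome 2 from 57106830 to 57124003 (Nr4a2), chromosome 4 from 48045153 to 48086447 (Nr4a3) and chromosome 11 from 69095217 to 69109960 (Per1). Pde4b spans chromosome 4 from 102087543 to 102607259, Pde4d chromosome 13 from 108449948 to 109953461 and Nfil3 chromosome 13 from 52967209 to 52981073.

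**Figure D1:**
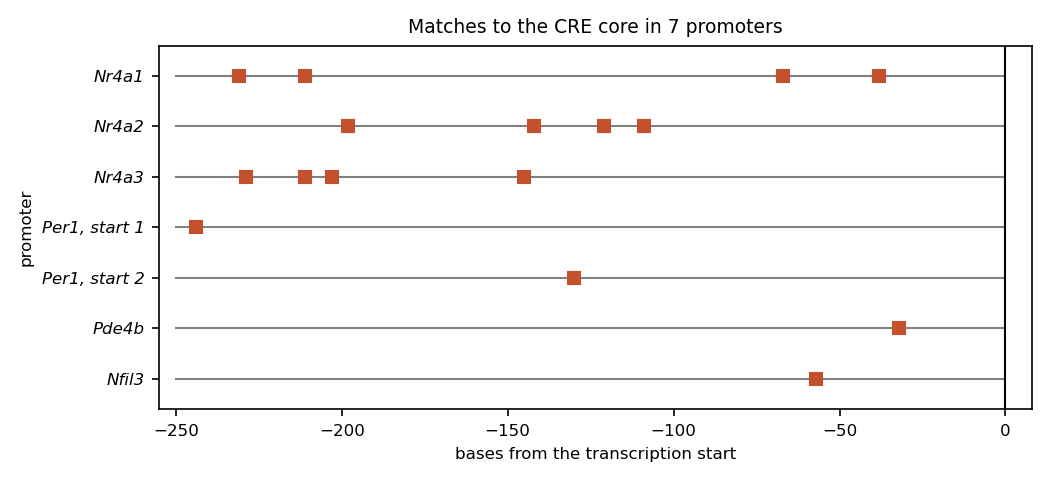
Position of each match to the CRE core in the 7 promoters that hold one, with distance from the transcription start in bases on the x axis and 1 line per promoter. Each square is centred on a match. The 3 NR4A genes hold 4 matches each and the other promoters 1 each.

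Of 9950 normal and 14327 polyp barcodes, 1841 and 6213 cells entered the comparison, with medians of 4135 and 3396 UMIs (unique molecular identifiers, each 1 captured RNA molecule). Of the rest, 1326 and 1674 barcodes that passed the filter were rich in ribosomal repeats and were set apart. The median mitochondrial share over all barcodes was 44.7% in the normal and 10.3% in the polyp library. The filter kept 32.7% of normal and 59.0% of polyp barcodes, or 78.4% and 83.2% with no mitochondrial limit. The part of this gap in the values below was not tested beyond the alternative setting without that limit. The libraries shared 44 barcodes, 10 of them past the filter in both. Stk11, the targeted gene, had a level of 28.3 CPM (the share of a gene in all UMIs, on the usual CPM scale) over all normal cells, beside 38.7 CPM over all polyp cells, and had 2 UMIs in the smooth muscle-like cells of either library. A 3′ tag can lie outside the deleted part, so this checks nothing. Types were set cell by cell from marker UMIs, and a name such as T-like says only that the cell carried those markers. A total of 5 types had at least 30 cells in both libraries and levels of their own markers at most 5-fold apart: T-like, all epithelial-like, all stromal-like, enteroendocrine-like and plasma-like cells. Enterocyte-, goblet- and pancreatic acinar-like cells failed the second condition and are given by level only.

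A level is the UMIs of a gene over all UMIs of the type, in CPM, with an exact Poisson 95% interval, and a ratio is polyp over normal with an exact conditional binomial 95% interval. These intervals cover counting error only, not differences between mice or preparations. A gene is called higher or lower where the ratio lies past 1.5-fold, the interval is clear of 1 and both libraries together hold at least 20 UMIs. The call compares 2 libraries, not the conditions.

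T-like cells of the polyp library held more of 6 of the 8 genes and less of Nr4a2. They numbered 744 normal and 642 polyp cells. Among all genes tested in these cells, 17.6% were called higher and 17.1% lower by the same rule, or 18.8% and 15.8% relative to the median gene, which kept the 8 calls. The median log2 ratio of the 8 genes was 1.24, beside -0.04 over all genes.

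Normal T-like cells held Crem at 30.3 CPM (24.0–37.8) and polyp T-like cells at 241 CPM (217–268), a ratio of 7.96 (6.23–10.3). Of the 8 genes it differed by the largest ratio in these cells, and its levels did not overlap. After thinning each cell to 1000 UMIs, 2.19% of 731 normal and 20.3% of 630 polyp T-like cells held a Crem UMI, against 7.39% and 31.8% before thinning. In gastric surface mucous-like polyp cells, taken as a background type, the thinned share was 0.439% and the unthinned share 6.04%, at a median of 13639 UMIs per cell beside 3207 and 2098 in normal and polyp T-like cells.

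The 3 orphan receptors differed from each other. Normal T-like cells held Nr4a1 at 457 CPM (432–484), beside 379 CPM (348–411) in the polyp library, a ratio of 0.828 (0.748–0.916) that did not reach the fold for a call. Nr4a2 was lower, at 228 CPM (210–247) and 117 CPM (100–135), a ratio of 0.513 (0.430–0.608). Nr4a3 was higher, at 66.4 CPM (56.9–77.1) and 241 CPM (217–268), a ratio of 3.64 (3.02–4.38). In thinned cells the share with a UMI went the same way, from 33.5% to 27.8% for Nr4a1, 19.6% to 10.2% for Nr4a2 and 6.16% to 18.7% for Nr4a3, normal before polyp. Unthinned, the shares were 53.0% and 43.0% for Nr4a1, 38.0% and 17.6% for Nr4a2, and 15.3% and 29.6% for Nr4a3.

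The clock repressor gene Per1 was at 87.1 CPM (76.1–99.2) and 160 CPM (141–182), a ratio of 1.84 (1.53–2.22). With each cell thinned to 1000 UMIs its ratio was 1.45, under the fold for a call. Of the cAMP phosphodiesterases, Pde4b was at 70.2 CPM (60.4–81.2) and 145 CPM (127–166), a ratio of 2.07 (1.69–2.54). Pde4d was at 11.5 CPM (7.77–16.4) and 57.7 CPM (46.1–71.2), a ratio of 5.01 (3.27–7.86). Nfil3 was at 35.7 CPM (28.8–43.7) and 95.9 CPM (80.8–113), a ratio of 2.69 (2.05–3.53). All 4 intervals of the normal levels lay below those of the polyp levels, in cells where 17.6% of all genes were called higher. The share of all genes with intervals apart was not counted.

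**Figure D2:**
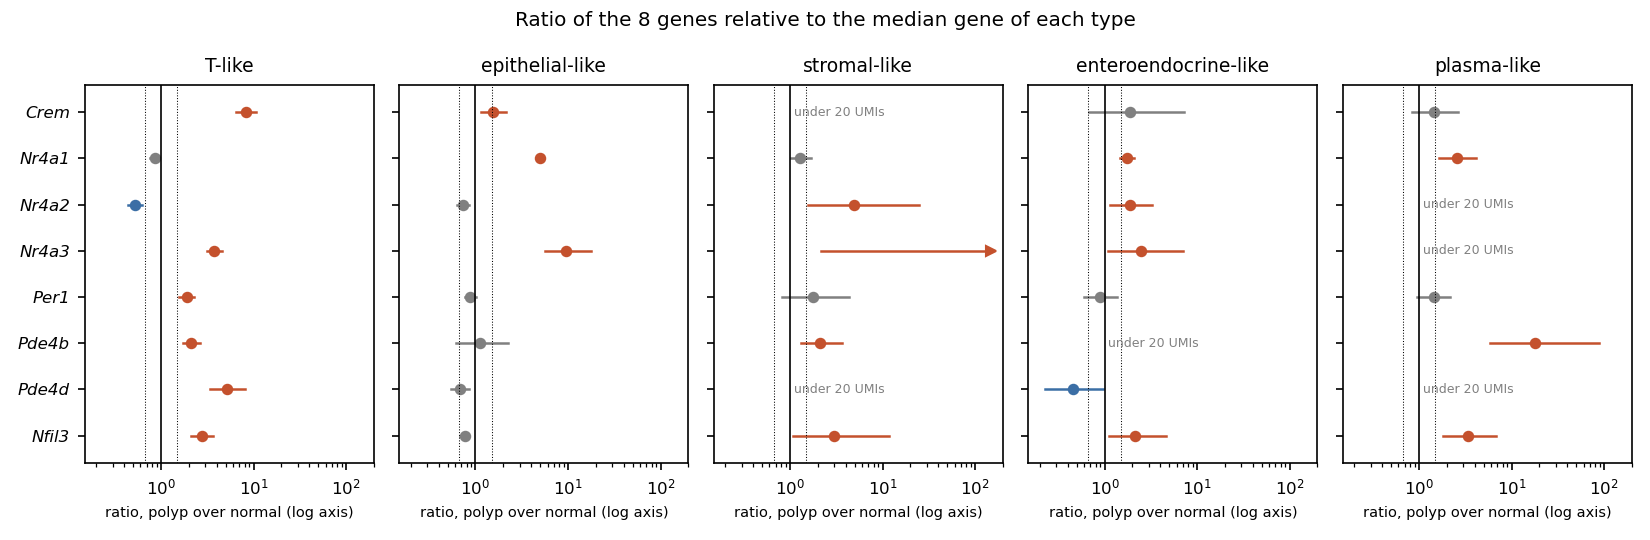
Ratio of each gene, polyp over normal and relative to the median gene of the type, on a log axis, for the 5 types compared, with exact 95% intervals of counting error as bars. Red points were called higher, blue lower and grey neither, dotted lines mark 1.5-fold in either direction, and the arrow marks a gene with 0 UMIs in normal cells. T-like cells hold 6 red points and Nr4a2 in blue.

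The T-like cells of the 2 libraries were different populations in several measured ways. Normal T-like cells lay in clusters 8 (59.0%), 5 (28.9%) and 17 (9.14%), and 96.4% of polyp T-like cells lay in cluster 13. Their own 9 markers summed to 7614 CPM in the normal library and 3427 CPM in the polyp library, none at 0 in either. Before cells of several lineages were left out, 826 normal and 711 polyp cells held the T class. Of these, 15 normal and 183 polyp cells had only 3 or 4 UMIs of its markers. A cell with both T and innate lymphoid markers was typed T-like, so such cells were not cleared from this type. The 9 markers of NK or innate lymphoid cells, among them Gata3, Il7r and Areg, the last also in the list of other CREB targets below, summed to 456 and 1413 CPM, and those of B cells to 17.7 and 3.35 CPM. Of the 13 T-cell activation and residence genes tested, 7 were higher and 4 lower in polyp cells. Il2ra (ratio 12.9) and Cd44 (9.07), genes of activated cells, and Tnfrsf4 (8.20), encoding OX40, were higher, and Itgae, encoding the integrin that ties T cells to epithelium, was lower, at 262 and 34.2 CPM. The part of this difference in the ratios of the 8 genes was not tested beyond the subsets below.

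Subsets were set by UMIs of their defining genes. CD8 cells numbered 602 normal and 57 polyp cells, CD4 cells 31 and 96, gamma-delta cells 31 and 43, and 106 and 489 cells had no Cd4, Cd8a or Cd8b1 UMI. Crem was called higher in each of the CD4, CD8 and gamma-delta subsets, at ratios between 2.31 and 11.7. In cells with a Foxp3 UMI, 4 normal and 41 polyp, Crem was called neither way (0.902, 0.350–2.96). Nr4a2 was not called lower in CD8 or CD4 cells. Per1, higher over all T-like cells, was called in none of the CD4, CD8 and gamma-delta subsets, and Pde4b only in gamma-delta cells. Requiring at least 2 UMIs of the subset gene left 5 normal and 16 polyp CD4 cells, in which each of the 8 genes was under the minimum of 20 UMIs, so no call could be made there. It left 499 and 17 CD8 cells, where Nr4a3 was higher (4.59, 2.30–8.34) and Crem was called neither way (2.89, 0.575–9.03). In the 24 and 26 gamma-delta cells left, Crem was higher (11.8, 3.59–60.8), Nr4a1 was called neither way (1.41, 0.813–2.45) and Nr4a3 and Nfil3 were under the minimum.

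In CD8 cells, where 7.68% of all genes were called higher and 7.07% lower, 3 of the 8 genes were higher and 1 lower. Crem was at 25.6 and 156 CPM (ratio 6.09, 3.57–10.1), Nr4a3 at 64.1 and 189 CPM (2.95, 1.89–4.46) and Pde4d at 11.2 and 60.9 CPM (5.46, 2.23–12.2). Nr4a1 was lower, at 441 and 271 CPM (0.614, 0.436–0.842). Normal CD8 cells held Nr4a2 at 248 CPM (227–270) and polyp ones at 271 CPM (193–368), a ratio of 1.09. Per1 (1.35, 0.757–2.26), Pde4b (1.35, 0.682–2.45) and Nfil3 (1.64, 0.635–3.59) were called neither way.

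Among CD4 cells, where 10.6% of genes were called higher and 12.5% lower, 2 of the 8 genes were higher. These were Crem at 81.2 CPM (38.9–149) and 187 CPM (138–249), a ratio of 2.31 (1.15–5.12), and Pde4d at 1 and 19 UMIs, a ratio of 9.32 (1.48–387). Nr4a2 stood at 81.2 and 67.7 CPM with a ratio of 0.834 (0.361–2.04). The remaining genes had intervals across 1, and Nfil3 had the ratio nearest 1 of them, 1.07 (0.505–2.42).

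Gamma-delta cells, set by a Trdc UMI with no Trac and no Cd4 UMI, had 5 of 7 tested genes higher and 1 lower, where 15.9% of all genes were called higher and 13.0% lower. Crem was at 28.2 and 329 CPM, resting on 3 normal UMIs (ratio 11.7, 3.64–59.7), Nr4a3 at 37.6 and 265 CPM (7.06, 2.44–27.9), and Nr4a1 at 338 and 658 CPM (1.95, 1.27–3.02). Nr4a2 was lower, at 348 CPM (245–479) and 74.3 CPM (29.9–153), a ratio of 0.214 (0.0804–0.486). Pde4b (2.76) and Nfil3 (3.39) were higher, Per1 was not called (2.26, 0.853–6.61), and Pde4d had 2 normal and 0 polyp UMIs. Of the gamma-delta cells, 27 of 31 normal and 1 of 43 polyp cells also carried a CD8 UMI, so this subset too differed in kind between the libraries.

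In T-like cells with no Cd4 or CD8 UMI, Crem was at 44.3 and 265 CPM (ratio 5.99, 3.51–11.1), Nr4a3 at 69.6 and 264 CPM (3.79, 2.45–6.14) and Pde4d at 15.8 and 53.1 CPM (3.36, 1.36–10.7). Nr4a1 there stood at 601 and 413 CPM (0.687, 0.578–0.818) and Nr4a2 at 152 and 107 CPM (0.705, upper end 1.01), neither called. Per1 (1.35, 0.951–1.96) and Pde4b (1.16, 0.824–1.66) were also called neither way. The share of all genes called was not counted for this subset. Nfil3 was at 63.3 CPM and 103 CPM in these cells, with an interval that began at 1.001.

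**Figure D3:**
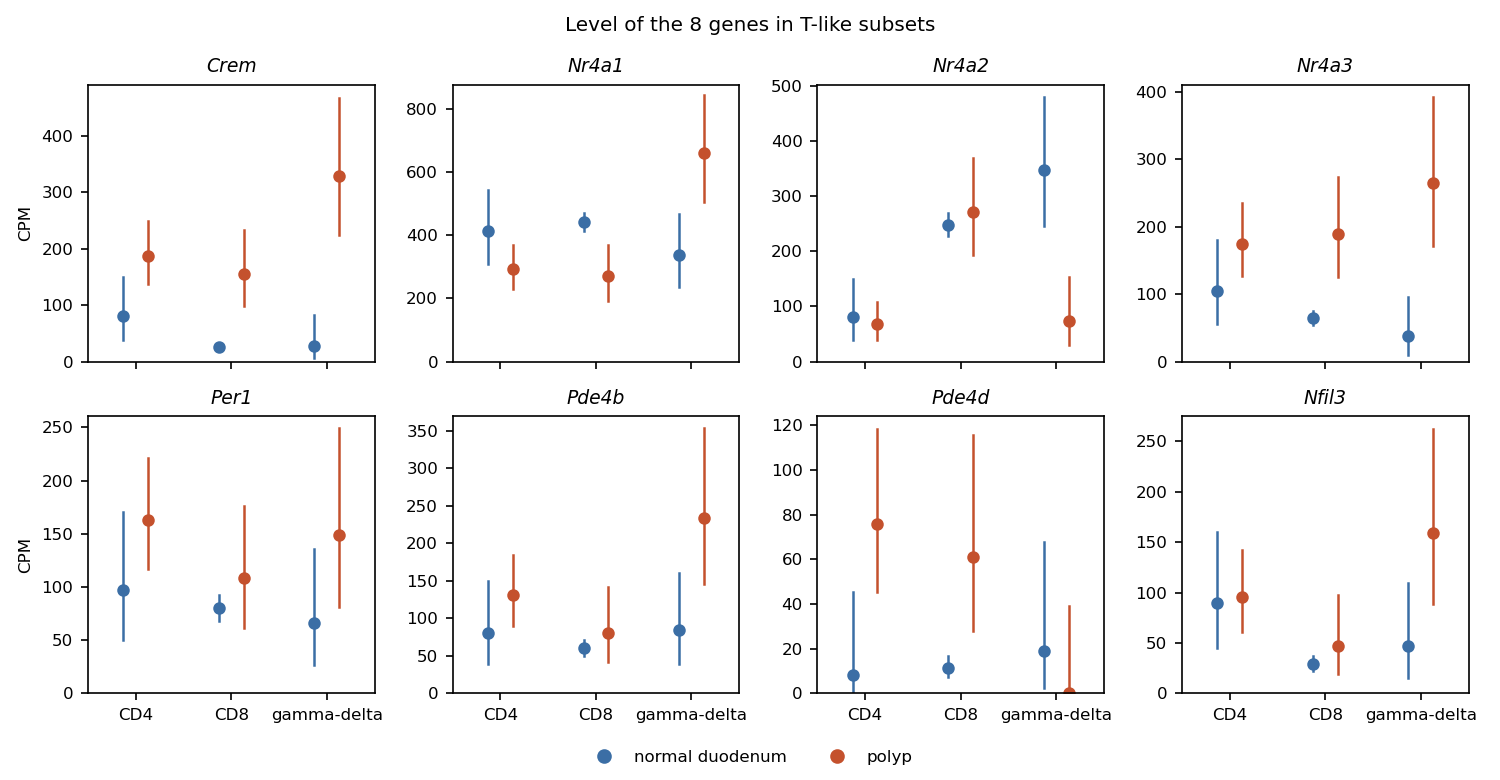
Level of each gene in CPM (y axis, linear, own scale per gene) in CD4, CD8 and gamma-delta T-like cells of the normal (blue) and polyp (red) library, with exact Poisson 95% intervals as bars. Crem is higher in polyp cells in all 3 subsets, whereas the intervals of Nr4a2 overlap in CD4 and CD8 cells and it is lower in polyp gamma-delta cells.

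Other genes of the pathway were read from lists, counted by the same call in T-like cells. Of 8 genes of the LKB1 complex and its kinases that were tested, 3 were higher and none lower, with a median log2 ratio of 0.51. Sik1, a salt-inducible kinase whose own gene is a CREB target, was at 29.9 and 139 CPM (ratio 4.64), Sik3 had a ratio of 2.13, and Cab39, encoding the LKB1 partner MO25, one of 1.72. Of 9 CREB, CRTC and coactivator genes, 1 was higher, Crebbp (1.75), and none lower. Of 7 genes of adenylate cyclase and protein kinase A, none was higher and 1 was lower, the catalytic subunit gene Prkacb (0.336).

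Receptors that raise cAMP were higher in 4 of 7 tested and lower in 1. Ramp1 (ratio 10.3) and Calcrl (3.64) encode the parts of the receptor of the neuropeptide CGRP, and Ptger2 (3 and 18 UMIs, ratio 10.5, 3.06–55.6) encodes a prostaglandin E2 receptor. The adrenergic receptor gene Adrb1 was lower (0.0971). Of the other cAMP phosphodiesterase genes tested, 1 of 4 was higher, Pde8a (4.24), and 3 were lower, Pde7a (0.488), Pde3b (0.537) and Pde4a, which had 20 and 1 UMIs (0.0874, 0.00211–0.546).

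Of 13 other CREB target genes tested, 10 were higher and 1 was lower, with a median log2 ratio of 2.04. Odc1, encoding ornithine decarboxylase, was at 359 and 1994 CPM (ratio 5.55), Id1 at 17.7 and 109 CPM (6.15) and Areg, encoding the growth factor amphiregulin, at 41.8 and 210 CPM (5.02). Ptgs2, encoding cyclooxygenase, had 0 normal and 20 polyp UMIs. In the same list, 7 of 9 tested genes were higher and 1 lower in CD4 cells, 7 of 10 higher and 1 lower in CD8 cells and 5 of 7 higher and none lower in gamma-delta cells.

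A list of 20 genes linked to tissue dissociation had 5 higher and 6 lower in polyp T-like cells, with a median log2 ratio of -0.19. They are called immediate-early genes here for short, although the list also holds heat-shock genes such as Dnajb1 and Hspa1a. Klf4 (3.80) and Ier3 (5.57) were higher, and Jun (0.293) and Fos (0.322) were lower, so the list did not move one way. In CD8 cells 4 of 20 were higher and 8 lower, in CD4 cells 3 of 19 were higher and 8 lower, and in gamma-delta cells 8 of 19 were higher and 2 lower, the subset in which Nr4a1 was higher.

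RNA of other cells was present in the T-like barcodes. Gastric surface mucous markers summed to 172 CPM in the normal and 10491 CPM in the polyp library's T-like cells, gland mucous markers to 862 and 21163 CPM, erythroid markers to 4573 and 7356 CPM and pancreatic acinar markers to 8815 and 615 CPM. The 8 genes differed in how much of them those cells held. Crem was at 8.25 CPM in gland mucous-like and 4.37 CPM in gastric surface mucous-like polyp cells, beside 241 CPM in polyp T-like cells. Gland mucous-like polyp cells held Nr4a1 at 370 CPM and Nfil3 at 63.7 CPM, beside 379 and 95.9 CPM in polyp T-like cells. The part of this RNA in the ratios was not tested.

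Epithelial-like cells of the polyp library held more Nr4a1, Nr4a3 and Crem, and none of the 8 genes was called lower. They numbered 616 normal and 3200 polyp cells, and 25.9% of all genes were called higher and 19.8% lower (24.1% and 21.7% relative to the median gene). The median log2 ratio of the 8 genes was 0.05, beside 0.07 over all genes, so these genes as a list lay at the level of all genes here. The populations differed: enterocyte markers summed to 27759 CPM in the normal and 411 CPM in the polyp library, and gastric surface mucous markers to 5122 and 73435 CPM.

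Nr4a1 was at 42.1 CPM (38.5–45.9) over normal epithelial-like cells and 219.7 CPM (215–225) over polyp ones, a ratio of 5.22 (4.78–5.72). Nr4a3 was at 1.14 CPM (0.621–1.91) and 11.4 CPM (10.3–12.6), a ratio of 10.0 (5.92–18.5), and Crem at 4.38 CPM (3.29–5.71) and 7.11 CPM (6.26–8.04), a ratio of 1.62 (1.21–2.22). Nr4a2 (0.763), Per1 (0.922), Pde4b (1.19), Pde4d (0.707) and Nfil3 (0.799) were called neither way.

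The level of Nr4a1 differed between epithelial kinds, and its gap between the libraries did too. In gland mucous-like cells, only 24 of them normal beside 893 polyp cells, it was at 330 CPM (279–387) and 370 CPM (357–383), and in gastric surface mucous-like cells, 21 and 1077, at 50.4 CPM (33.5–72.9) and 45.9 CPM (42.6–49.3). Normal enterocyte-like cells, 343 of the 616, held 12.1 CPM (9.72–14.8), and the 59 polyp enterocyte-like cells, with their far lower enterocyte markers, held 179.6 CPM (153–210). Goblet-like cells held 36.3 CPM (26.2–49.1) and 244 CPM (221–267), and other epithelial-like cells 29.3 CPM (22.4–37.5) and 350.2 CPM (335–366), normal before polyp. The levels overlapped in both mucous kinds and lay apart in the other 3. Nfil3 also followed the kind of cell, at 63.7 CPM in gland mucous-like and 8.36 CPM in gastric surface mucous-like polyp cells and at 50.1 CPM in normal enterocyte-like cells.

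Of the other lists in epithelial-like cells, other CREB targets were 4 higher and 3 lower of 15 tested, shares near the 25.9% and 19.8% of all genes. Ptgs2 (0 and 50 UMIs) and Bdnf (0 and 46) were among the higher and Areg (0.453) and the gluconeogenic gene Pck1 (0.0243) among the lower. Immediate-early genes were 8 higher and none lower of 20, with Klf4 (3.40) and Klf2 (2.98) leading. Relative to the median gene 5 were higher, a share near the 24.1% of all genes. Genes of the LKB1 complex and its kinases were 3 higher, among them Strada (2.58), and 2 lower, among them Prkaa2 (0.257), of 10, shares near those of all genes.

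Stromal-like cells, fibroblast- and smooth muscle-like together, held more Nr4a2, Nr4a3, Pde4b and Nfil3 in the polyp library, and none of the 8 genes was called lower. They numbered 40 normal and 215 polyp cells. By the same rule 7.99% of all genes were called higher and 9.33% lower (9.17% and 7.62% relative to the median gene). The 6 genes tested had a median log2 ratio of 1.17, beside -0.08 over all genes.

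Pde4b was at 99.8 CPM (60.1–156) in the normal library and 200.5 CPM (166–240) in the polyp library, a ratio of 2.01 (1.23–3.45). Nr4a2 rested on 3 normal and 43 polyp UMIs, 15.8 and 73.7 CPM, a ratio of 4.67 (1.496–23.6). Nfil3 rested on 4 and 35 UMIs, a ratio of 2.85 (1.02–11.1). Nr4a3 had 0 normal and 25 polyp UMIs, 2.72-fold higher if the normal count is set to a floor of 3 UMIs. The interval of its ratio began at 2.05. Nr4a1 was at 431 CPM (343–535) and 528 CPM (471–590) and was called neither way, as was Per1 (1.67, 0.774–4.13). Crem, with 2 and 17 UMIs, and Pde4d, with 1 and 7, were under the minimum. None of the 4 calls held when each cell was thinned to 1000 UMIs, where Pde4b had a ratio of 1.21.

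Smooth muscle-like cells, the type in which the Myh11 promoter drives Cre, numbered 12 normal and 26 polyp cells, too few for a call. Nr4a2 was at 51.3 CPM (10.6–150) in the normal and 233 CPM (155–337) in the polyp library, and Pde4b at 154 CPM (70.4–292) and 299 CPM (210–414). Nr4a1 was at 1129 CPM (873–1436) and 624 CPM (491–782). Crem had 0 normal and 12 polyp UMIs, and Nr4a3 had 0 and 7. In fibroblast-like cells, 28 and 189, Nr4a1 went the other way, at 121 CPM (69.4–197) and 503 CPM (440–572), and Pde4b was at 75.9 CPM (36.4–140) and 175 CPM (139–217). The single ratio of Nr4a1 over all stromal-like cells joins these kinds, whose levels lay in opposite order between the libraries. The order in smooth muscle-like cells rests on 12 normal cells, and the intervals cover counting error only.

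Among other CREB targets in stromal-like cells, 5 of 12 were higher and 1 lower, with Ptgs2 at 137 and 310 CPM (ratio 2.27), Rgs2 resting on 2 and 31 UMIs (5.05, 1.29–43.6) and Id1 lower (0.407). No gene of the LKB1 complex and its kinases (5 tested), of CREB and its coactivators (6) or of protein kinase A (7) was called either way. Genes of the immediate-early list were 4 higher, the heat-shock gene Dnajb1 (3.41) among them, and 4 lower, Klf2 (0.336) among them, of 20. Gland mucous markers summed to 431 CPM in the normal and 20756 CPM in the polyp library's stromal-like cells, and their part in these ratios was not tested.

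In enteroendocrine-like cells, the hormone cells of the gut epithelium, the median gene was lower in the polyp library by 0.14 on the log2 scale, so ratios here are relative to it. Nr4a1, Nr4a2, Nr4a3 and Nfil3 were higher and Pde4d was lower, where 13.6% of all genes were called higher and 14.1% lower. Without that scaling Nr4a3 was not called (2.25, 0.982–6.35), leaving 3 higher beside 11.2% of all genes, and 1 lower beside 17.5%. There were 49 normal and 269 polyp cells. On total UMIs, Nr4a1 kept its call in 8 of 14 alternative settings, Nfil3 in 7, Nr4a2 in 5 and Pde4d in 12, and no gene was higher with a 2-fold call, with thinning, with the stricter cell filter, with types from Leiden clusters or with 2 more marker UMIs. Gland mucous markers summed to 487 CPM in the normal and 31163 CPM in the polyp library's enteroendocrine-like cells, and gastric surface mucous markers to 107 and 9233 CPM, and their part in these ratios was not tested.

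Nr4a1 was at 352 CPM (296–416) in the normal and 559 CPM (526–593) in the polyp library, a relative ratio of 1.74 (1.46–2.10). Nr4a2 was at 45.9 and 78.2 CPM (1.87, 1.14–3.24), Nr4a3 at 15.3 and 34.5 CPM (2.47, 1.08–6.98) and Nfil3 at 25.5 and 49.4 CPM (2.13, 1.11–4.58). Pde4d was at 33.2 CPM (17.7–56.7) and 13.9 CPM (9.16–20.2), a relative ratio of 0.460 (0.229–0.971). Per1 (0.886) and Crem (1.88, 0.672–7.31) were called neither way, and Pde4b had 0 and 11 UMIs.

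The enteroendocrine-like cells of the libraries differed in kind. Their own 7 markers summed to 26218 CPM in the normal and 6919 CPM in the polyp library. Enterocyte markers summed to 14635 and 87.0 CPM. Of the normal cells 46.9% lay in cluster 19, whereas 93.7% of the polyp cells lay in cluster 18. The cells also made different hormones. Gast, encoding gastrin, was at 2.55 and 25771 CPM and Ghrl, encoding ghrelin, at 3469 and 66150 CPM, while Sct, encoding secretin, was at 5281 and 14.9 CPM. Within cluster 18, which held 252 polyp and 21 normal enteroendocrine-like cells, only Nr4a1 was higher of the 8 genes (ratio 2.13 on total UMIs), Nr4a2 (0.916) and Nfil3 (0.813) turned below 1, and Pde4d (0.464) was called neither way. The immediate-early list was 8 higher and none lower of 20 relative to the median gene, Hspa1a (relative ratio 4.69) and Klf4 (2.75) among them. Sik1 was lower (0.508), and other CREB targets were 2 higher, among them Irs2 (4.10), and 5 lower, among them Odc1 (0.450), of 12.

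Plasma-like cells, which secrete antibody, numbered 143 normal and 277 polyp cells. The median gene was higher in the polyp library by 0.57 on the log2 scale, and ratios are relative to it. Nr4a1, Pde4b and Nfil3 were higher, 3 of the 5 genes tested, and none was lower, where 12.4% of all genes were called higher and 11.6% lower. Without that scaling all 5 were higher, beside 35.6% of all genes, and none lower, beside 3.38%. The cells lay in different clusters, 95.1% of the normal ones in cluster 7 and 92.4% of the polyp ones in cluster 27. Gland mucous markers summed to 312 CPM in the normal and 8591 CPM in the polyp library's plasma-like cells, and gastric surface mucous markers to 42.4 and 3951 CPM. Their part in these ratios was not tested.

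Pde4b stood out by its ratio, with 3 normal and 66 polyp UMIs, 1.18 CPM (0.243–3.44) and 31.2 CPM (24.1–39.7), a relative ratio of 17.8 (5.83–88.4). Nr4a1 was at 10.6 and 40.2 CPM (2.55, 1.63–4.08) and Nfil3 at 5.10 and 25.5 CPM (3.36, 1.81–6.71). Crem (1.46, 0.837–2.62) and Per1 (1.43, 0.961–2.17) were called neither way. Nr4a2 (3 and 5 UMIs), Nr4a3 (0 and 9) and Pde4d (0 and 2) were under the minimum. The other phosphodiesterase genes tested, Pde7a (3 and 26 UMIs, ratio 10.4, 3.197–53.9, on total UMIs) and Pde3b (4 and 22 UMIs, 6.62, 2.25–26.4), were also higher, 2 of 2. Immediate-early genes went the other way, 1 higher and 13 lower of 20 relative to the median gene, with Fos (0.201) and Jun (0.214) among them.

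Across the types with at least 10 cells in a library, each gene had its own order of levels. Crem was highest in NK or innate lymphoid-like polyp cells (98 cells, 254 CPM, 191–330) and polyp T-like cells, whose intervals overlapped, and then in smooth muscle-like (99.8 CPM, 51.6–174), B-like (68.4 CPM, 36.4–117) and dendritic-like (63.5 CPM, 38.2–99.2) polyp cells, which overlapped each other. Epithelial kinds lay under 20 CPM. Normal NK or innate lymphoid-like cells numbered 5, so no comparison was made there.

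Nr4a1 was highest in NK or innate lymphoid-like polyp cells (1061 CPM, 928–1207), normal smooth muscle-like cells and the 23 neutrophil-like polyp cells (1016 CPM, 695–1434), all overlapping. It was lowest in normal plasma-like and enterocyte-like cells. Nr4a2 was highest in polyp smooth muscle-like, normal T-like and dendritic-like polyp cells (197 CPM, 150–254), which also overlapped. Nr4a3 was highest in the 47 dendritic-like polyp cells at 555 CPM (474–646). That interval overlapped the one of neutrophil-like cells (254 CPM, 110–500 on 8 UMIs) and lay above those of polyp T-like cells and of NK or innate lymphoid-like cells (221 CPM, 163–293).

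Per1 was highest in neutrophil-like cells (317 CPM, 152–584) on 10 UMIs, overlapping polyp T-like cells. Pde4b led in smooth muscle-like and fibroblast-like polyp cells, whose intervals overlapped, followed by the 12 normal smooth muscle-like cells, polyp T-like cells and blood and lymphatic endothelial-like cells together (131 CPM, 82.0–198). It lay under 6 CPM in the epithelial-like kinds of that size, apart from polyp acinar-like cells (7.71 CPM on 2 UMIs). The 9 normal Paneth-like cells, below that size, held 4 UMIs of it (42.1 CPM, 11.5–108). Pde4d, which breaks down the same nucleotide, had another order, led by the 68 mast-like polyp cells (75.4 CPM, 43.9–121) and polyp T-like cells, which overlapped. Nfil3 led in NK or innate lymphoid-like cells (106 CPM, 67.2–159), overlapping polyp T-like and dendritic-like cells (70.2 CPM, 43.4–107).

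**Figure D4:**
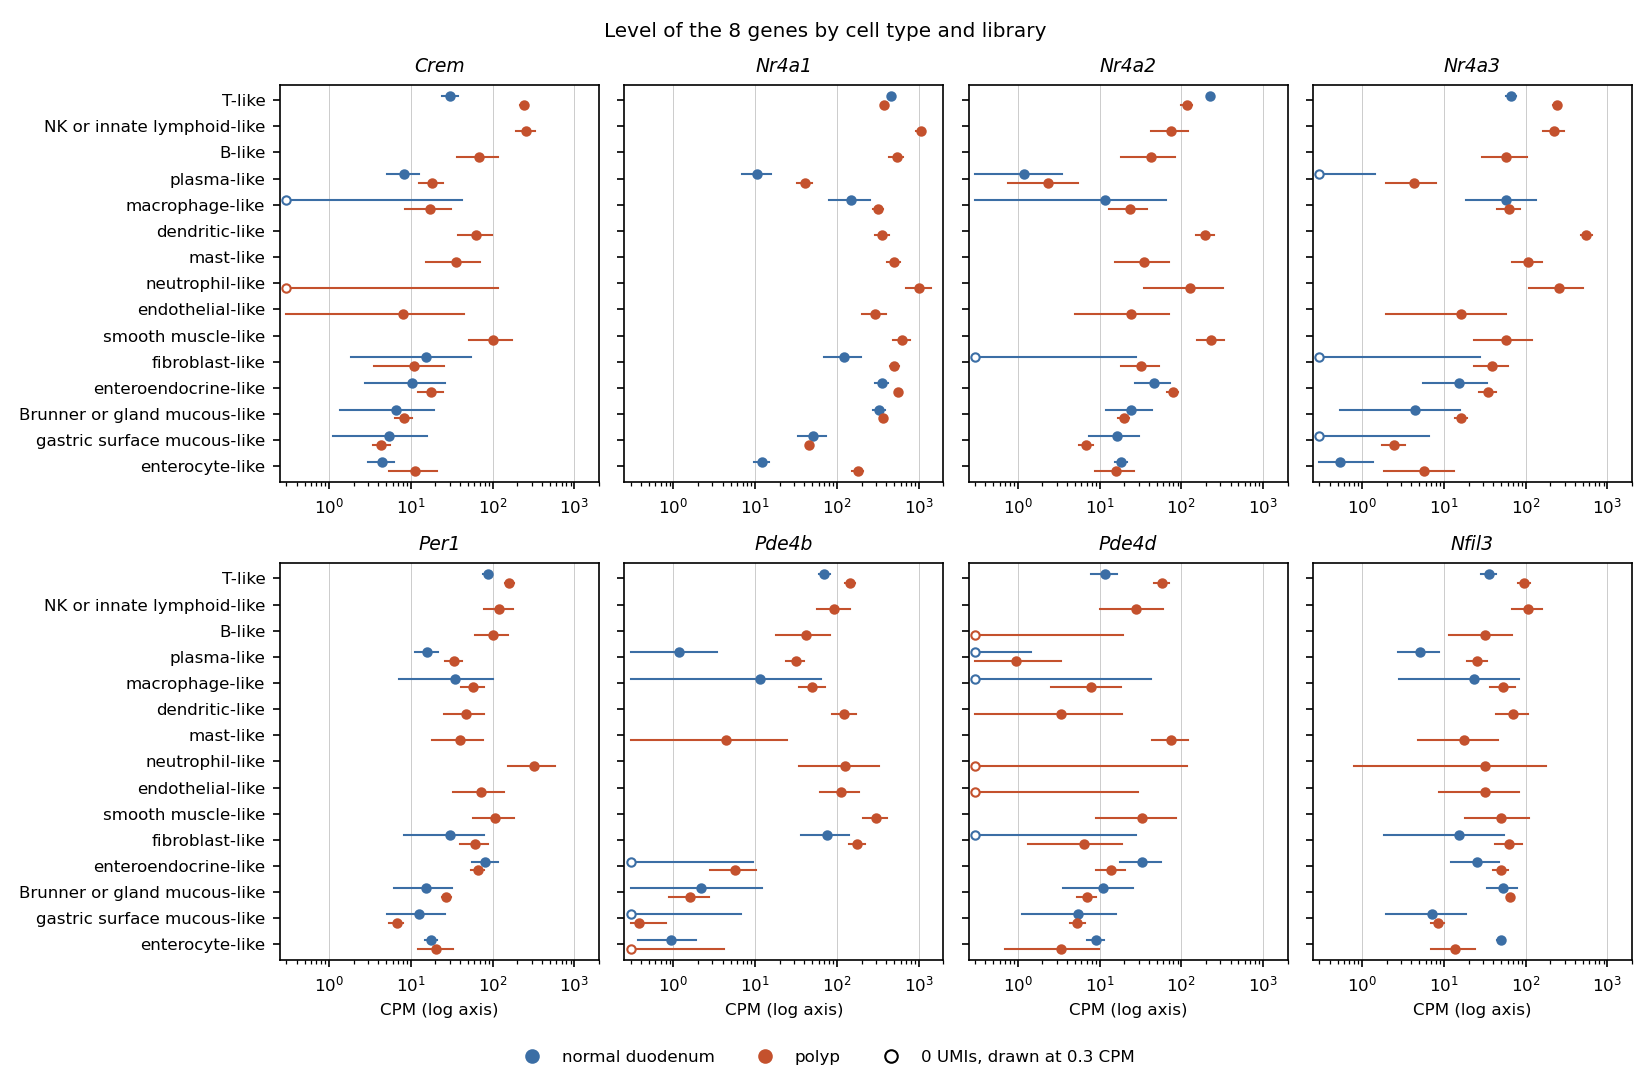
Level of each gene in CPM on a log axis by cell type, in the normal (blue) and polyp (red) library, with exact Poisson 95% intervals as bars and open circles for 0 UMIs. Crem and Nr4a3 stand highest in lymphoid or dendritic kinds, Pde4b in stromal kinds, and Pde4b lies under 3 CPM in mucous-like and enterocyte-like cells.

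Over the 24 profiles of a type in a library with at least 30 cells, the 8 genes went together to different degrees, described by Pearson r of log2(CPM + 10). The highest pairs were Nr4a2 with Nr4a3 (0.789) and Crem with Nr4a3 (0.764), and the lowest was Pde4b with Pde4d (0.106). The profiles share libraries, and levels of low types rest on few UMIs. Among 10933 genes the most like Crem were Gm42659 (0.892), P2ry10 (0.887) and Adora2a (0.886), the most like Nr4a3 were Stat5a (0.901), Atxn7l1 and Rgs2 (0.885), and the most like Pde4b were Mdfic (0.920), Flna (0.896) and Gbp2 (0.892). For Per1 they were Taf7 (0.907), H2-Q4 (0.891) and Clk1 (0.888), for Nr4a1 Stat3 (0.881), Mllt6 (0.875) and Lnpep (0.874), and for Nr4a2 Cdkn1b (0.877), Btg1 (0.855) and Gpbp1 (0.850). For Nfil3 they were Skil (0.834), Il4ra (0.809) and Zc3h12a (0.789), and for Pde4d Dcaf15 (0.784), Tnik (0.776) and Gm50394 (0.774).

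Cell by cell, the 8 genes moved together only weakly. In T-like cells the 28 pairs had a median Pearson r of 0.0349 in 744 normal cells, from -0.0217 to 0.200, and of 0.0562 in 642 polyp cells, from -0.0689 to 0.208. Over all pairs of genes detected in at least 5% of the same cells the medians were 0.00465 and 0.00391. Values over 0.1 were found for 6 and 7 of the 28 pairs, against 1.29% and 1.75% of all pairs. In cells thinned to 1000 UMIs they were found for 4 and 1 pairs, against 0.858% and 1.35% of all pairs. In sparse counts such weak values are no finding, and the genes of a cell share its depth and library.

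The pairs at the top differed between the libraries. In normal T-like cells they were Nr4a1 with Per1 (0.200), Nr4a1 with Nr4a3 (0.187) and Nr4a2 with Nr4a3 (0.158). In polyp T-like cells they were Crem with Nr4a3 (0.208), Nr4a3 with Pde4b (0.189) and Nr4a3 with Nfil3 (0.134), while Crem with Nr4a1 stood at -0.0565. Thinned to 1000 UMIs per cell, the leading normal pairs stood at 0.104, 0.0950 and 0.125. The leading polyp pairs then stood at 0.0988, 0.0993 and 0.0567, below Nr4a2 with Pde4d (0.114). Both Crem and Nr4a3 were held by 86 polyp cells where 60.4 would hold both if they were independent, and by 32 beside 24.0 in thinned cells. Thinning lowered the median of the 28 pairs to 0.0209 in normal and 0.0153 in polyp cells, whereas in the middle of the cells by UMI count it was 0.0425 and 0.0661.

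**Figure D5:**
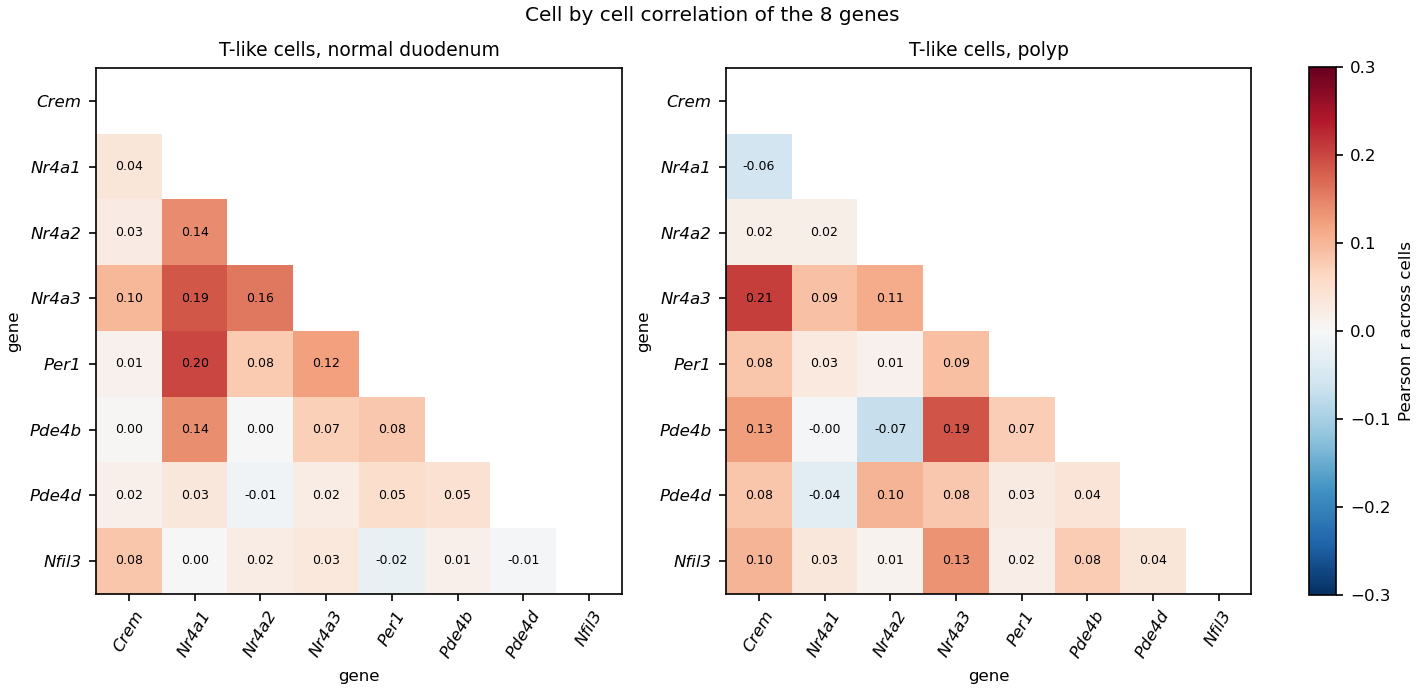
Pearson r of log-normalised counts across T-like cells for each pair of the 8 genes, in 744 normal (left) and 642 polyp cells (right), with colour and printed value showing r. Without thinning, Nr4a1 pairs are the strongest in normal cells and Crem with Nr4a3 in polyp cells, and no pair passes 0.208.

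The immediate-early genes correlated more with each other than the 8 genes did, at a median of 0.190 in normal and 0.126 in polyp T-like cells. The summed 8 genes followed the summed immediate-early genes more in normal cells (r = 0.357, or 0.252 thinned) than in polyp cells (0.0532, or 0.107 thinned). Genes most like the summed 8 genes in normal T-like cells were Pnrc1 (0.456), Tnfaip3 (0.433), Ubald2 (0.410), Vps37b (0.403) and Junb (0.383), followed by Hsp90ab1, Hspa8, Hsp90aa1 and Hsph1, the last 4 being heat-shock genes. In polyp T-like cells they were Rora (0.376), a nuclear receptor gene of innate lymphoid and helper cells, Samsn1 (0.351), H3f3b (0.333), Odc1 (0.316) and Vps37b (0.307), followed by Nrip1, Btg1, Ifrd1, Srgn and Fosl2. At 1000 UMIs per cell, 4.79% of normal and 12.1% of polyp T-like cells held 3 or more of the 8 genes, and 44.3% and 31.1% held none.

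Other types with at least 200 cells in a library showed pairs of other make-up. Nr4a1 with Nr4a3 led in polyp enteroendocrine-like cells (0.291 over 269 cells), and Nr4a1 with Nfil3 in gland mucous-like cells (0.316 over 893 cells). Crem with Nr4a3 led in macrophage-like cells (0.359 over 261 cells), on 5 cells that held both. The median over the 28 pairs was 0.0793, 0.0281 and 0.0682 in these types, beside 0.00718, 0.0211 and 0.0095 over all gene pairs. In the remaining 3 types it lay below that of all gene pairs. It was -0.0158 beside 0.0058 in polyp plasma-like cells, 0.00729 beside 0.0278 in polyp gastric surface mucous-like cells and -0.0106 beside 0.0137 in normal enterocyte-like cells. Thinned to 1000 UMIs per cell, the median was 0.0280 in enteroendocrine-like, -0.00492 in gland mucous-like and -0.0112 in macrophage-like cells. All gene pairs then had -0.00116, 0.000435 and -0.00254. The leading pairs of these types fell to 0.158, 0.0760 and -0.0136, and no macrophage-like cell then held both Crem and Nr4a3. In the remaining 3 types the thinned median stayed below that of all gene pairs.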

How the data were processed

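The deposited matrices hold counts of unique molecular identifiers per gene and barcode, from 10x Genomics 3′ v3 libraries of tissue digested in collagenase for 40 min at 37 °C, per the labels' protocols. The file headers name Cell Ranger 5.0.0, whereas the submitters' processing notes name Cell Ranger 3.0.0 and mm10; the sources used here name no annotation release. All further steps were computed for this work with Python 3.11.15, numpy 2.4.6, scipy 1.17.1, pandas 2.3.3, scanpy 1.11.5, leidenalg 0.10.2 and matplotlib 3.10.9.

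Barcodes were kept with at least 500 UMIs, 250 genes and at most 25% mitochondrial UMIs. The thresholds of scrublet marked 0 doublets, so barcodes were removed from the top score down, at an assumed rate of 0.8% per 1000 cells, 85 normal and 573 polyp barcodes. Barcodes in clusters rich in ribosomal repeats were set apart. A cell held a class with at least 3 UMIs of at least 2 of its markers (3 markers for abundant classes). T and lymphoid classes aside, it also needed at least 3 times the share in background. Cells with markers of several lineages, or of none, were left out of the types. Innate lymphoid, erythroid and acinar markers did not count there, so a cell with both T and innate lymphoid markers was typed T-like. Within a lineage the class with the largest share of its markers was taken, enteroendocrine first. Gamma-delta cells were set by Trdc with no Trac and no Cd4 UMI, since Trgc1 and Trgc2 were not matched by name. The typing rule, the repeat rule and the 5-fold limit on own markers were set after seeing the data. The 8 genes and the gene lists were chosen with earlier results of these data known.

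Levels, ratios and calls are as defined in the results, with exact 95% intervals that cover counting error only. The calling and thinning code was tested on simulated data, and the correlation code was not. Total counts of the typed cells were 20108498 in the normal and 48576657 in the polyp library. From the lists, genes called in a type were named, up to 4 per list by the end of the interval nearest 1, beside the 8 genes, the 3 genes most like each over types (at least 200 UMIs) and the 10 most like their sum in T-like cells, of which 1 is not reported here. Alternatives were other cell filters, no doublet removal, cluster-based types, stricter markers, cell means, other totals, thinning, a 2-fold call and no count minimum.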

Additional observations from a re-analysis of the deposited data

Results flagged for a closer look

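Some genes were called in opposite directions in different cell types of the same pair of libraries. Nr4a2 had a ratio of 4.67 in stromal-like and 1.70 in enteroendocrine-like cells, where it was higher in the polyp library, and of 0.513 in T-like cells, where it was lower. Pde4d was higher in T-like cells (5.01) and lower in enteroendocrine-like cells (0.419, before scaling to the median gene). Within T-like cells, Nr4a1 was lower in CD8 cells (0.614) and higher in gamma-delta cells (1.95). With 1 library per group none of these differences between types was tested.

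The barcodes rich in ribosomal repeats, which entered no comparison, held some of the genes at higher levels in the polyp library. They differed in kind between the libraries. Of the normal ones 1281 lay in cluster 0, with Fabp1 and Apoa4 among its leading genes. Of the polyp ones 1662 lay in cluster 20, with haemoglobin genes, Pgc and Tff1 among its leading genes. Nr4a1 stood at 158 CPM (141–177) in 1674 polyp barcodes and 52.7 CPM (40.9–66.9) in 1326 normal ones. Nr4a3 stood at 20.8 CPM (14.8–28.3) beside 5.43 CPM (2.18–11.2), and Nfil3 at 33.2 CPM (25.6–42.4) beside 12.4 CPM (7.09–20.1).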

How the results depend on the processing

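Of 147 counts and other summary values recomputed under alternatives, 124 kept their value within the limits set, and of 468 recomputed ratios 4 of genes that had been called changed sides of 1. In T-like cells Crem ranged from 6.89 to 11.2, Nr4a3 from 3.39 to 3.83 and Nr4a2 from 0.466 to 0.550, and the count of lower genes became 0 with a 2-fold call. In enteroendocrine-like cells 3 genes higher became 0 with a 2-fold call, thinning, the strict filter, types from Leiden clusters or 2 more marker UMIs, and 1 in 1 cluster; 1 lower became 0 with thinning or in 1 cluster and 2 with Leiden types. In plasma-like cells 5 higher became 3 relative to the median gene and 1 with thinning, and in stromal-like cells 4 higher became 0 with thinning. In epithelial-like cells none lower became 1 without the mitochondrial limit and 1 with Leiden types. With 2 or more UMIs of the subset gene, genes higher numbered 1 in CD8 and 2 in gamma-delta cells, and 0 in CD4 cells, where all 8 were under the minimum. Thinned to 500 and 2000 UMIs, the share of T-like cells with Crem was 1.08% and 5.38% in normal and 11.7% and 27.8% in polyp cells. The median r of the 28 pairs in polyp T-like cells was 0.0153 when thinned. The called ratios that changed sides were Per1 in plasma-like cells when thinned (0.643), and in enteroendocrine-like cells Nr4a2 in 1 cluster (0.916) or with no doublet removal (0.912) and Nfil3 in 1 cluster (0.813). Uncalled ratios crossed 1 too: Per1 in epithelial-like cells without free-RNA markers (1.02) and in stromal-like cells when thinned (0.804), Nfil3 in epithelial-like cells by cell means (1.12) or thinned (1.19), Crem in 1 enteroendocrine cluster (0.891) and Nr4a2 in plasma-like cells with Leiden types (0.581). Thinning leaves fewer UMIs; for the other changes the cause was not tested. The single cluster, the total without free-RNA markers and the kept repeat-rich barcodes were chosen after seeing the data. No paired analysis was possible because each group was 1 library.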

Other observations

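Clock genes other than Per1 were counted by the same call. In T-like cells 6 of 12 tested were higher in the polyp library and none lower, beside 17.6% and 17.1% of all genes, with Hlf (ratio 3.96), Nr1d1 (3.64), Arntl (3.88) and Dbp (2.08) the first 4. In plasma-like cells 2 of 6 were higher relative to the median gene, Nr1d1 (2.51) and Nr1d2 (2.96), beside 12.4% of all genes. In epithelial-like cells none of 13 was higher, beside 25.9% of all genes, and 3 were lower, Cry1 (0.286), Per2 (0.408) and Hlf (0.110), a share near the 19.8% of all genes. In stromal-like cells 1 of 9 was higher and 1 lower, and in enteroendocrine-like cells none of 9 was higher and 1 was lower.

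Genes of cAMP signalling were counted in epithelial-like cells, whose kinds differed between the libraries. Of 5 other phosphodiesterase genes, 4 were higher, beside 25.9% of all genes, among them Pde8a (12.5), Pde3b (4.17) and Pde4a (0.568 and 2.56 CPM), and Pde3a was lower (0.0138). Of 8 genes of adenylate cyclase and protein kinase A, 2 were higher and 1 lower, shares near those of all genes. Among them the regulatory subunit gene Prkar2b had 1 normal and 387 polyp UMIs (ratio 134, 23.9–5309), whereas Prkar2a was lower (0.458). Regulatory T-like cells, set by Foxp3, numbered 4 normal and 41 polyp cells, and the latter held Crem at 296 CPM (203–415), Nr4a3 at 179 CPM (109–277) and Nr4a2 at 17.9 CPM (2.17–64.7). The 4 normal cells held Crem at 328 CPM (106–765) on 5 UMIs, a ratio of 0.902 (0.350–2.96), called neither way. Nr4a3 rested on 2 normal UMIs (ratio 1.37, 0.332–12.1) and was called neither way, and Nr4a2 was under the minimum.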
